A study of Homo sapiens with 10 samples.

Results

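The genes described here govern entry into S phase and its coupling to growth: the D cyclins CCND1, CCND2 and CCND3, the E cyclins CCNE1 and CCNE2, the CDK inhibitors CDKN1A and CDKN1C, and the MYC family genes MYC, MYCN and MYCL. They were taken by symbol, and all 10 were found, as 11 identifiers, among 35940 symbols and 37951 identifiers in the count table. All 10 passed the filter on low counts. RNA was sequenced in bulk from ESI017, an established line of human pluripotent stem cells kept in the maintenance medium mTeSR1. Untreated cells in mTeSR1 were compared with cells given the ligand WNT3A (300 ng/ml) for 6 h or 18 h, and with cells given CHIR99021 (8 µM), an inhibitor of the kinase GSK3, for 6 h or 18 h. All cells were plated 24 h before treatment, and each of the 5 groups has 2 libraries. In 4 of the groups the libraries come from 2 biological repeats, whereas both CHIR99021 18 h libraries come from repeat 2, so that their spread holds no variation between repeats. The labels give neither a time point for mTeSR1 nor a solvent control, so that the effects of time in culture or of solvent cannot be told apart from those of treatment. The cells are 1 line, and no other line was analysed here.

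D cyclins bind and activate CDK4 and CDK6, and E cyclins activate CDK2. Together these kinases phosphorylate the retinoblastoma protein and its relatives, which releases E2F factors to switch on genes of DNA replication. CDKN1A (p21) and CDKN1C (p57) belong to the CIP/KIP inhibitors, which bind cyclin-CDK complexes. MYC, MYCN and MYCL encode related transcription factors that pair with MAX at E-box sequences and favour growth. CCND1 and MYC are classical target genes of β-catenin in colorectal cancer cells, and GSK3 also phosphorylates D cyclins, cyclin E and MYC proteins and so marks them for degradation. RNA counts do not report on that second route. Pluripotent stem cells are known for a short G1 phase.

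Library totals were between 1.66e+07 and 2.67e+07 estimated counts. All 8 pluripotency markers were above 1 CPM (counts per 1e+06 of the scaled library total) in every group. Their summed level was 9431 and 9272 CPM in mTeSR1 and 7006 to 8629 CPM in the treated libraries, each below both untreated ones. AXIN2, a feedback gene used as a check of pathway activation, had 39.3 and 31.8 CPM in mTeSR1, 250.2 and 184 CPM after 6 h and 211 and 168 CPM after 18 h of WNT3A, 104 and 112 CPM after 6 h of CHIR99021, and 120.2 and 249 CPM after 18 h. All treated libraries were thus above both untreated ones. Markers of primitive streak and mesendoderm (TBXT, EOMES, MIXL1 and GSC) had a higher summed level in every treated library: it was 0.471 and 1.59 CPM in mTeSR1, where 2 of the 4 had 0 counts, 71.5 and 74.1 CPM after 6 h and 231 and 241 CPM after 18 h of WNT3A, and 6.22 and 7.82 CPM after 6 h of CHIR99021. The CHIR99021 18 h libraries differed from each other in this sum (22.1 and 209 CPM). The summed level of 4 trophoblast markers (CDX2, GATA3, KRT7 and TFAP2A) was 13.6 and 9.81 CPM in mTeSR1, 36.4 and 22.3 CPM after 6 h and 55.7 and 28.7 CPM after 18 h of WNT3A, 14.3 and 11.3 CPM after 6 h of CHIR99021, and 5.55 and 46.7 CPM after 18 h. Of these 4, 1 was above 1 CPM in mTeSR1 and 2 in each treated group. Mitochondrial transcripts, followed as signs of RNA quality, had a median log2 change over 6 genes of -0.08 after 6 h and -0.72 after 18 h of WNT3A, and of -0.38 at both times of CHIR99021. In edgeR 0 of them were called in the 8 pairwise comparisons (48 tests, 12 with an unadjusted p under 0.05, 0 called by DESeq2). With the biological repeat as a block 5 were called lower after 18 h of WNT3A, where 2.86% of all genes were called lower. Libraries mTeSR1 replicate 2 and WNT3A 6 h replicate 2 stood apart: in them the deviation of a gene from its mean rose with transcript length (Spearman correlation across 13634 genes 0.396 and 0.494, against -0.325 to 0.00453 in the other 8). The part of these markers, of RNA quality or of these libraries in the calls of CCND1 and MYCL and in the other results was not tested beyond the values given below. In bulk RNA, a change in the level per cell and a change in the share of cells that express a gene cannot be told apart.

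CCND1, the gene of cyclin D1, was higher after WNT3A at both times and after 18 h of CHIR99021 (ENSG00000110092, GRCh38 chromosome 11, 69641087 to 69654474, plus strand, protein coding). It had 158 and 210.4 CPM in mTeSR1. After WNT3A it stood at 712 and 872 CPM at 6 h, and at 474 and 477 CPM at 18 h. After CHIR99021 it stood at 372 and 363 CPM at 6 h, and at 423 and 518 CPM at 18 h. All 8 treated libraries were above both untreated ones, and both WNT3A 6 h libraries were above every other library. The mean went from 184 ± 37.1 to 792 ± 113 CPM (SD, n = 2) after 6 h of WNT3A, a log2 change of 2.11 (SE 0.19, 95% interval 1.67 to 2.54, edgeR FDR 0.00306, rank 9 of 15251 genes by p). Within repeats the fold was 4.51 in repeat 1 and 4.15 in repeat 2. At 18 h of WNT3A the mean was 475 ± 2.34 CPM, a log2 change of 1.37 (SE 0.19, edgeR FDR 0.0106), with folds of 3.0 and 2.27 within repeats. After 18 h of CHIR99021 it was 470.4 ± 67.1 CPM, a log2 change of 1.28 with the repeat as a block (SE 0.17, edgeR FDR 0.00861). Without the block the log2 change was 1.35 (edgeR FDR 0.0150), and the fold within repeat 2 was 2.24. After 6 h of CHIR99021 the mean was 367 ± 6.02 CPM, a log2 change of 1.00 (95% interval 0.58 to 1.42) that did not pass in edgeR (FDR 0.297, unadjusted p = 0.000486), although DESeq2 called it (FDR 0.000786). The 6 h increase with WNT3A was called in all 16 alternatives, at 1.89 to 2.32. The 18 h call with WNT3A was lost without mTeSR1 replicate 1 (FDR 0.0682) or without either WNT3A 18 h library (FDR 0.0657 and 0.0761). That with CHIR99021 was lost without mTeSR1 replicate 1 (FDR 0.0661), mTeSR1 replicate 2 (FDR 0.125) or CHIR99021 18 h replicate 2 (FDR 0.0646).

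**Figure D1:**
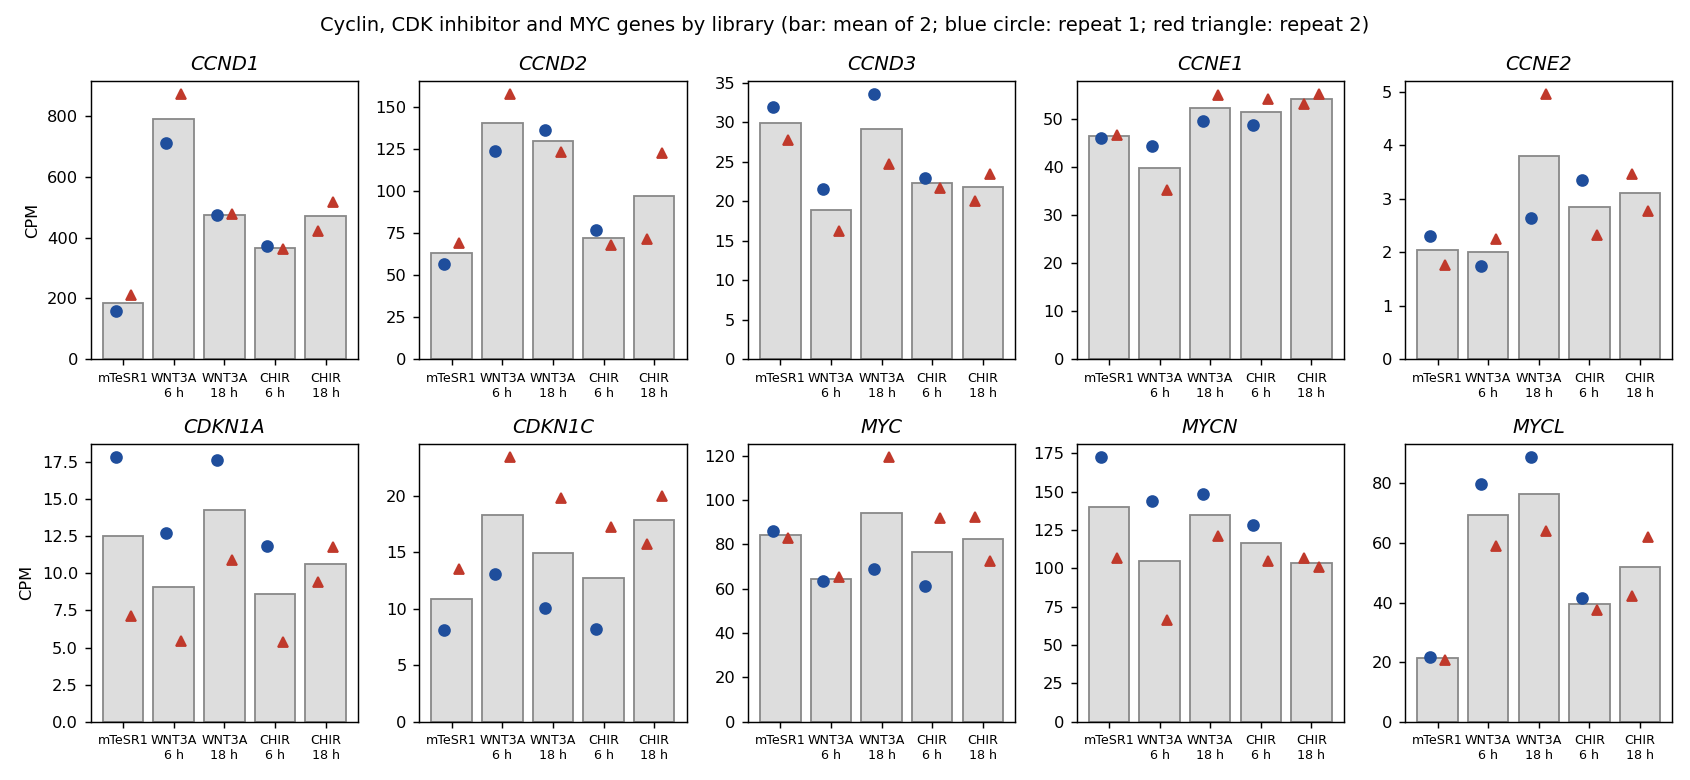
Level of each gene in CPM (vertical axis from 0) in the 5 groups, with a bar at the mean of 2 libraries and a point for each library marked by biological repeat. All treated libraries of CCND1 and MYCL lie above both mTeSR1 libraries, CDKN1A and CDKN1C separate the repeats within most groups, and MYC and MYCN each overlap mTeSR1 in 3 of the 4 treated groups.

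CCND2, the gene of cyclin D2, had 56.4 and 69.2 CPM in mTeSR1 (ENSG00000118971, chromosome 12, 4273772 to 4305350, plus strand). With WNT3A it reached 123 and 157 CPM at 6 h and 136 and 123 CPM at 18 h. With CHIR99021 it was at 76.5 and 67.6 CPM at 6 h and at 71.4 and 122 CPM at 18 h. The WNT3A libraries lay above both untreated ones at each time, while the CHIR99021 6 h libraries overlapped them. The log2 changes with WNT3A were 1.16 (SE 0.25, edgeR FDR 0.134) and 1.05 (SE 0.25, edgeR FDR 0.0826), neither of which passed. With the biological repeat as a block the 18 h change passed (FDR 0.0465) and the 6 h change did not (FDR 0.0804). DESeq2 called both (FDR 0.00262 and 0.00462), and edgeR called both without either CHIR99021 18 h library (FDR 0.0486 and 0.0488 at 6 h, 0.0340 and 0.0337 at 18 h). With no filter on low counts edgeR also called both (FDR 0.00591 and 0.00691). With CHIR99021 the log2 changes were 0.20 (95% interval -0.37 to 0.76, FDR 0.954) at 6 h and 0.59 (0.0029 to 1.17, FDR 0.253) at 18 h. In the CHIR99021 18 h pair, replicate 2 was the library with the higher sum of streak markers. CCND1, CCND2 and MYCL were higher in it, as were CCND3, CCNE1, CDKN1A and CDKN1C, while CCNE2, MYC and MYCN were lower.

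CCND3, the gene of cyclin D3, did not follow the other D cyclins (ENSG00000112576, chromosome 6, 41934933 to 42050357, minus strand). It had 32.0 and 27.8 CPM in mTeSR1 against 21.5 and 16.2 CPM after 6 h of WNT3A, with no overlap. By 18 h it was at 33.5 and 24.6 CPM, a range that contains both untreated values. CHIR99021 libraries had 23.0 and 21.6 CPM at 6 h and 19.99 and 23.5 CPM at 18 h, all below mTeSR1. None of its changes passed: the log2 change was -0.66 (95% interval -1.14 to -0.19, edgeR FDR 0.433) at 6 h of WNT3A, -0.04 at 18 h, -0.42 at 6 h of CHIR99021 and -0.31 at 18 h.

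Per length of the longest annotated transcript, the D cyclin sum was 58.7 and 71.1 CPM per kb in mTeSR1. It was 193 and 234 after 6 h and 145 and 140.0 after 18 h of WNT3A, and 108 and 104 after 6 h and 118 and 149 after 18 h of CHIR99021. All treated libraries were above both untreated ones in this sum. CCND1 made up a mean of 65.5% of it in mTeSR1, 86.1% and 77.5% after 6 h and 18 h of WNT3A, and 80.7% and 82.1% after 6 h and 18 h of CHIR99021. The share of CCND3 was 19.5% in mTeSR1 and 3.77% after 6 h of WNT3A, while that of CCND2 was 14.9% and 10.1%.

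**Figure D2:**
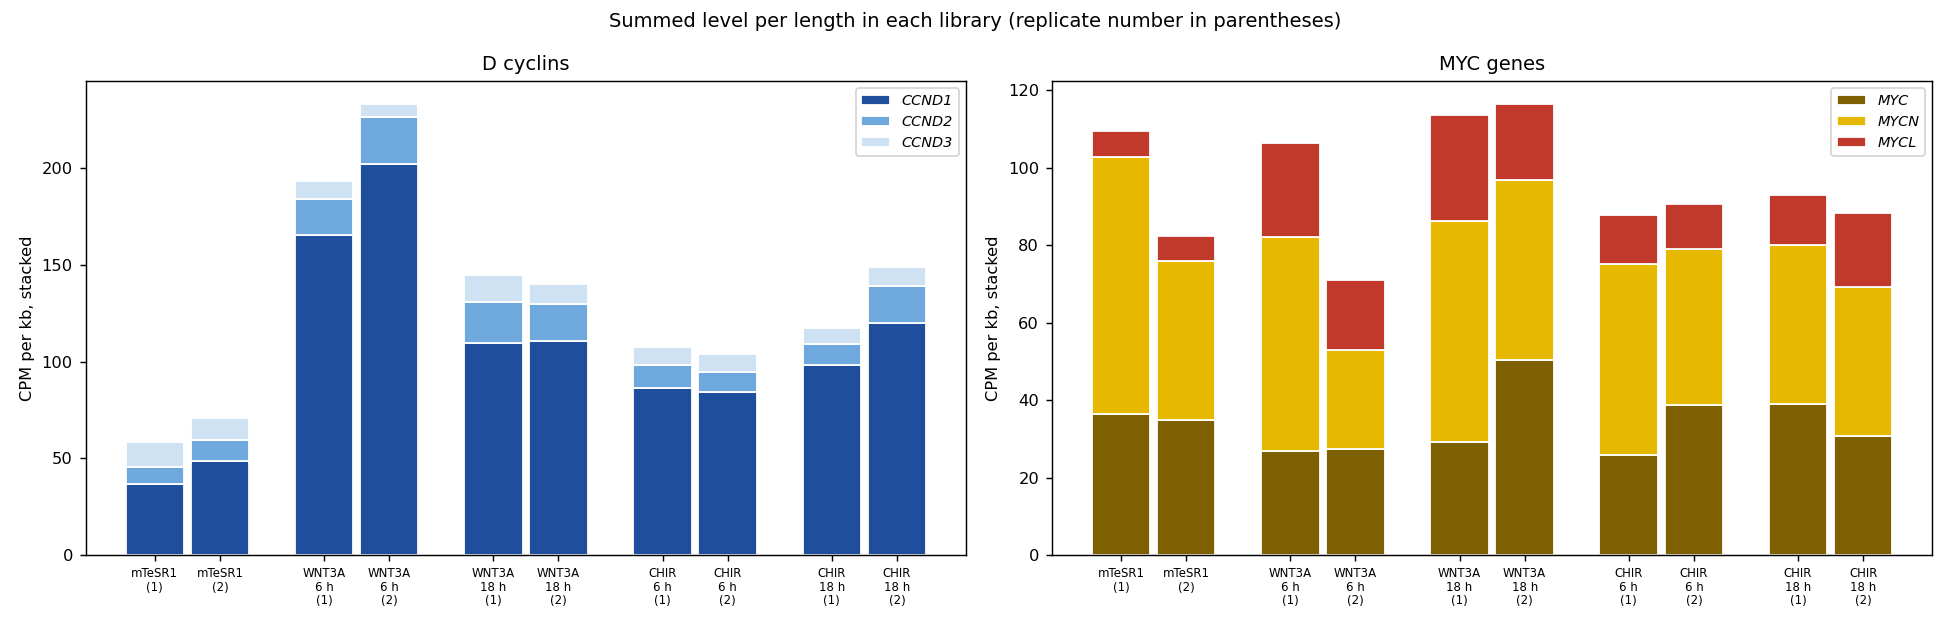
Stacked levels in CPM per kb of longest transcript (vertical axis from 0) for the D cyclin genes (left) and the MYC genes (right), with a bar for each library and a colour for each gene. The D cyclin bars are taller in all 8 treated libraries, from 104 to 234 against 58.7 and 71.1 in mTeSR1, whereas the MYC bars overlap those of mTeSR1 in all groups but WNT3A at 18 h, and the MYCL segment is wider in each treated library.

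CCNE1, the gene of cyclin E1, was at 46.2 and 46.7 CPM in mTeSR1 (ENSG00000105173, chromosome 19, 29811898 to 29824308, plus strand). Its 10 libraries lay between 35.3 and 55.2 CPM, and the highest was 1.56 times the lowest. After 6 h of WNT3A it was at 44.4 and 35.3 CPM, and in the other treated libraries at 48.8 to 55.2 CPM. The log2 change was -0.22 (95% interval -0.56 to 0.12) after 6 h of WNT3A, 0.17 after 18 h, and 0.15 and 0.23 after 6 h and 18 h of CHIR99021, none past the test. The upper bounds of these intervals, at most 0.58, exclude an increase of the size fitted for CCND1 at the same time and treatment in all 4 comparisons.

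CCNE2, the gene of cyclin E2, was the least abundant of these genes, at 1.75 to 4.95 CPM and 31 to 86 counts per library (ENSG00000175305, chromosome 8, 94879770 to 94896678, minus strand). It had 2.30 and 1.76 CPM in mTeSR1 and 2.64 and 4.95 CPM after 18 h of WNT3A. The log2 change of 0.89 (95% interval 0.0015 to 1.79) in that comparison did not pass (edgeR FDR 0.366). At these counts the intervals were wide, and at 18 h of CHIR99021 that of a log2 change of 0.55 ran from -0.41 to 1.52. Per kb, CCNE1 made up 95.8% to 97.4% of the E cyclin sum in every group.

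CDKN1A, which p53 induces, differed between the biological repeats (ENSG00000124762, chromosome 6, 36676460 to 36687339, plus strand). Repeat 1 and repeat 2 had 17.8 and 7.15 CPM in mTeSR1, 12.7 and 5.42 CPM after 6 h and 17.6 and 10.9 CPM after 18 h of WNT3A, and 11.8 and 5.39 CPM after 6 h of CHIR99021. The CHIR99021 18 h libraries, both of repeat 2, had 9.43 and 11.8 CPM. Repeat 2 was lower in every group that holds both repeats. In the blocked fit the repeat term was a log2 change of -1.09 (SE 0.15, edgeR FDR 0.00976), where 5.96% of all genes were called; this term was looked at after the values were seen. No treatment change passed, with or without the repeat as a block. After 6 h of CHIR99021 the log2 change was -0.54 (SE 0.56) without the block. With it, the change was -0.51 (SE 0.21, edgeR unadjusted p = 0.0409, FDR 0.613). At 18 h of CHIR99021 the log2 change was 0.44 (95% interval -0.07 to 0.96) with the repeat as a block and -0.24 without it, and the fold within repeat 2 was 1.48. Within repeats the folds after 6 h were 0.712 and 0.758 with WNT3A and 0.664 and 0.755 with CHIR99021, so that all 4 libraries were below the untreated library of their repeat. At 18 h the folds with WNT3A were 0.987 and 1.52.

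CDKN1C, an imprinted gene, showed the opposite repeat difference (ENSG00000129757, chromosome 11, 2883213 to 2885773, minus strand). A further identifier of this symbol, off the primary assembly, held 7.46% of its counts, and both were summed. Repeat 1 and repeat 2 had 8.11 and 13.6 CPM in mTeSR1, 13.1 and 23.5 CPM after 6 h and 10.1 and 19.8 CPM after 18 h of WNT3A, and 8.22 and 17.3 CPM after 6 h of CHIR99021, while the CHIR99021 18 h libraries had 15.8 and 19.97 CPM. Repeat 2 was higher in each group with both repeats (log2 0.91, SE 0.12, edgeR FDR 0.00976). The change with 6 h of WNT3A was 0.76 on the log2 scale (95% interval -0.30 to 1.82, edgeR FDR 1.00), and 0.74 with an FDR of 0.121 with the repeat as a block. Its folds within repeats were 1.62 and 1.73. The other log2 changes against mTeSR1 were 0.46 after 18 h of WNT3A and 0.24 after 6 h of CHIR99021, without the block. After 18 h of CHIR99021 the change was 0.32 (SE 0.19) with the block and 0.72 (SE 0.47) without it. None of these passed.

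MYCL, the gene of L-MYC, was the MYC family member that rose (ENSG00000116990, chromosome 1, 39895426 to 39902256, minus strand). It had 21.9 and 20.8 CPM in mTeSR1. WNT3A libraries had 79.8 and 58.8 CPM at 6 h and 88.9 and 64.1 CPM at 18 h. CHIR99021 libraries had 41.6 and 37.6 CPM at 6 h and 42.1 and 62.1 CPM at 18 h. All 8 treated libraries were above both untreated ones, and the lowest WNT3A 6 h value was above both CHIR99021 6 h values. The mean of 21.3 ± 0.780 CPM in mTeSR1 became 69.3 ± 14.8 CPM (SD, n = 2) after 6 h of WNT3A, a log2 change of 1.70 (SE 0.24, 95% interval 1.14 to 2.26, edgeR FDR 0.0248). By 18 h of WNT3A it was 76.5 ± 17.5 CPM, a log2 change of 1.84 (SE 0.25, edgeR FDR 0.00978). In the CHIR99021 18 h group it was 52.1 ± 14.1 CPM, a log2 change of 1.43 with the repeat as a block (SE 0.21, edgeR FDR 0.0134). Without the block the log2 change was 1.29, near the threshold (edgeR FDR 0.0483). After 6 h of CHIR99021 the mean was 39.6 ± 2.82 CPM, a log2 change of 0.89 (95% interval 0.34 to 1.44) that did not pass (edgeR FDR 0.748). Within repeats 1 and 2 the folds with WNT3A were 3.65 and 2.83 at 6 h and 4.07 and 3.09 at 18 h, those with CHIR99021 at 6 h were 1.90 and 1.81, and that at 18 h, in repeat 2, was 2.51.

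The MYCL calls depended on single libraries, although every alternative gave a positive change. The 6 h call with WNT3A was lost without mTeSR1 replicate 1 (FDR 0.214), mTeSR1 replicate 2 (0.189), WNT3A 6 h replicate 1 (0.0585) or either CHIR99021 6 h library (0.0636 and 0.0643), and without both libraries that follow transcript length (0.201). The WNT3A 18 h call was lost without mTeSR1 replicate 1 (0.0620), mTeSR1 replicate 2 (0.0733), WNT3A 18 h replicate 1 (0.0657) or both length-linked libraries (0.0549). The call with 18 h of CHIR99021 was lost without mTeSR1 replicate 1 (0.0873), mTeSR1 replicate 2 (0.171), CHIR99021 18 h replicate 2 (0.0641) or both length-linked libraries (0.180). Over the 16 alternatives the log2 change ranged from 1.47 to 1.91, from 1.59 to 2.06 and from 1.13 to 1.69 in these comparisons.

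MYCN, the gene of N-MYC, had 173 and 107 CPM in mTeSR1 (ENSG00000134323, chromosome 2, 15940564 to 15947007, plus strand). It had 144 and 66.1 CPM after 6 h and 149 and 121 CPM after 18 h of WNT3A, and 128 and 105 CPM after 6 h and 107 and 101 CPM after 18 h of CHIR99021. Each treated group overlapped mTeSR1 except CHIR99021 at 18 h, where both libraries were below the lower mTeSR1 value. The nearer of them was almost level with it, at 106.6 against 106.8 CPM, and the fold within repeat 2 was 0.970. The log2 changes lay between -0.41 and -0.05, with the repeat as a block for CHIR99021 at 18 h only, and none passed. Without the block the change after 18 h of CHIR99021 was -0.43 (SE 0.35). With the block the change after 6 h of WNT3A was -0.46 (SE 0.19, edgeR unadjusted p = 0.0449, FDR 0.532). Repeat 2 was below repeat 1 in the 4 groups with both (log2 -0.60, SE 0.14, edgeR FDR 0.0435).

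To set the MYC family member that rose beside one that did not pass the test, 250 bases of MYCL and of MYCN are given. They lie before the start listed in the RefSeq promoter table (GRCh38.p14), in which MYCL, MYCN, CCNE1, CDKN1A and CCND3 were matched. The MYCL bases lie within the gene bounds given above (39895426 to 39902256, minus strand), downstream of their 5′ end. Bases before that end were not searched. Windows of 300 bases, from 250 bases before to 50 after the start, were searched on both strands for the TCF/LEF core CTTTGA (also with a T or an A after it), for the TCF/LEF variants CTTTGTT as well as CTTTGTA, for the E-box CACGTG, for the E2F sequences TTTCGCGC as well as TTTGGCGC, and for the CRE half-site TGACG with, as the full element, TGACGTCA. Several of these can overlap. Sequences run 5′ to 3′ on the gene's own strand, and capitals mark matches.
MYCL (chr1:39901918-39902167, minus strand): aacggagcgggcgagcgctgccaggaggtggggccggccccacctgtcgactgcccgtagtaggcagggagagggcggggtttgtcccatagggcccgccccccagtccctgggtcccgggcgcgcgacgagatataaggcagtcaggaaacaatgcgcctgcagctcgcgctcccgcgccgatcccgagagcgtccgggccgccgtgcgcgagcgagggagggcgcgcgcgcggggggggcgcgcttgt
MYCN (chr2:15940300-15940549, plus strand): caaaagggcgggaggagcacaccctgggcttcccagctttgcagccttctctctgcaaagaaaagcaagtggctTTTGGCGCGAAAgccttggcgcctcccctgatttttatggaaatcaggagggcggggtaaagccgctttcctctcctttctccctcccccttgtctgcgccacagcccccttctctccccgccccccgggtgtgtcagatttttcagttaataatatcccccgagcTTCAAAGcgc
MYCL had none of the searched sequences in its window. MYCN had TTTGGCGC on its own strand starting at -176 and TTTCGCGC on the other strand at -172, which overlap, and CTTTGAA, which holds the core CTTTGA, on the other strand at -10. Of 35116 promoter windows of the same length, 0.652% held TTTGGCGC, 0.515% held TTTCGCGC, 4.43% held CTTTGAA and 12.9% held CTTTGA. CCND3 has 3 windows in the table and the other matched genes 1 each. In 1 of the 3 there was CTTTGTA at -6, a sequence found in 2.77% of single windows, and CCNE1 and CDKN1A had none. A match describes letters in a window.

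MYC itself did not pass in any comparison (ENSG00000136997, chromosome 8, 127735434 to 127741434, plus strand). It had 86.0 and 82.6 CPM in mTeSR1 and 63.4 and 65.1 CPM after 6 h of WNT3A, with no overlap. By 18 h it was at 69.1 and 119 CPM, on either side of both untreated values. With CHIR99021 it was at 61.2 and 91.7 CPM at 6 h and at 92.4 and 72.5 CPM at 18 h, again on either side. The log2 change was -0.39 (95% interval -1.01 to 0.23) after 6 h of WNT3A, 0.16 (-0.46 to 0.78) after 18 h, -0.14 (-0.76 to 0.48) after 6 h of CHIR99021 and -0.21 (-0.75 to 0.32) after 18 h. The intervals exclude a doubling, a log2 change of 1, in each of these 4 comparisons.

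The summed level of the MYC genes per kb was 109 and 82.4 CPM per kb in mTeSR1, 107 and 71.0 after 6 h and 114 and 117 after 18 h of WNT3A, and 87.9 and 90.6 after 6 h and 93.0 and 88.4 after 18 h of CHIR99021. Apart from WNT3A at 18 h, where both libraries were above mTeSR1, the groups overlapped. The mean share of MYCL in this sum was 6.94% in mTeSR1, 24.2% and 20.5% after 6 h and 18 h of WNT3A, and 13.6% and 17.7% after 6 h and 18 h of CHIR99021.

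Counted over the 10 genes, CCND1 and MYCL rose after 6 h of WNT3A and none fell, where 0.387% of the 15251 genes tested were called higher and 0.0459% lower. After 18 h of WNT3A the same genes rose and none fell, against 1.04% of all genes called higher and 1.06% lower. With the repeat as a block CCND2 made 3, against 2.07%. After 18 h of CHIR99021 CCND1 and MYCL rose and none fell, against 1.15% higher and 1.63% lower. After 6 h of CHIR99021 edgeR called 0 of the 10, with 2 at an unadjusted p under 0.05 (CCND1 and MYCL, against 4.74% of all genes) and 1 called by DESeq2. In that comparison 0.0197% of all genes were called higher and 0% lower. Groups did not overlap for 3 of the 10 genes higher and 3 lower after 6 h of WNT3A, where the shares of all genes were 13.7% and 12%. These counts were 5 and 0 after 18 h of WNT3A (21.8% and 21.3% of all genes), 4 and 1 after 6 h of CHIR99021 (16.5% and 15.9%), and 6 and 2 after 18 h (24.2% and 22.7%). The comparisons share the mTeSR1 libraries, so the rise of the same genes in several of them is not independent.

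**Figure D3:**
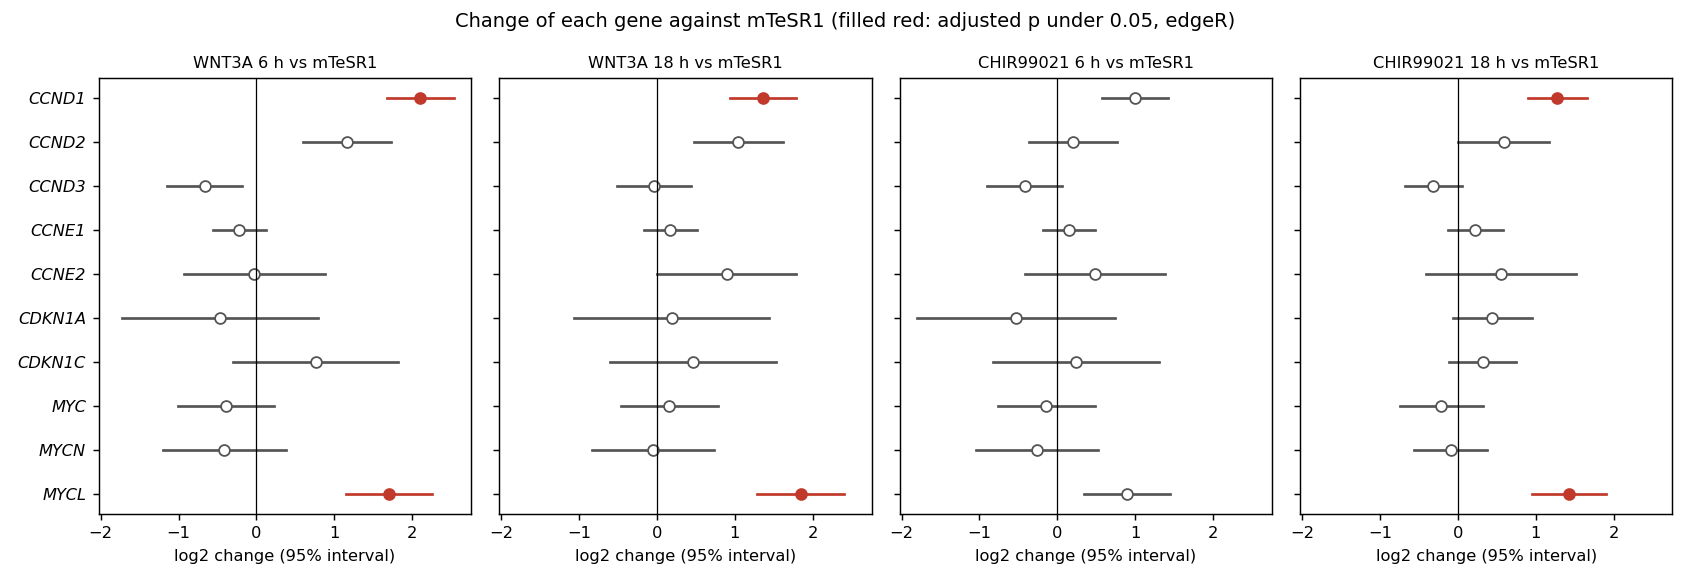
Log2 change of each gene against mTeSR1 (horizontal axis) with its 95% interval, in a panel for each treatment and time; filled red points passed an FDR of 0.05 in edgeR. The repeat was a block only in the panel of CHIR99021 at 18 h. CCND1 and MYCL passed in 3 of the 4 panels, from 1.28 to 2.11 and from 1.43 to 1.84. The plotted intervals of MYC, MYCN, CCNE1 and CDKN1A include 0 in all panels. With the block, MYCN after 6 h of WNT3A changed by -0.46 (SE 0.19, edgeR unadjusted p = 0.0449, FDR 0.532). CDKN1A after 6 h of CHIR99021 changed by -0.51 (SE 0.21, edgeR unadjusted p = 0.0409, FDR 0.613).

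The ligand and the inhibitor were compared directly at matched times, with doses that are not on a common scale. At 6 h CCND1 was lower with CHIR99021 than with WNT3A by a log2 difference of -1.11 (95% interval -1.53 to -0.69), with the libraries of the treatments not overlapping. This did not pass over all genes (edgeR FDR 0.587, unadjusted p = 0.000231), although DESeq2 called it (FDR 0.000115). CCND2 and MYCL were likewise lower with CHIR99021 in both libraries, by log2 differences of -0.96 (95% interval -1.53 to -0.40) and -0.81 (-1.35 to -0.27), each with an edgeR FDR of 0.691. These 3 were the genes lower without overlap, as 18% of all genes were, and 3 (CCND3, CCNE1 and CCNE2) were higher without overlap, as 16.5% were. In all, edgeR called 0 of the 10 genes, with 4 at an unadjusted p under 0.05 (6.53% of all genes) and 1 called by DESeq2, while 0.00656% of all genes were called. At 18 h edgeR and DESeq2 called 0 of the 10, with 0 at an unadjusted p under 0.05 (4.12% of all genes) and 0% of all genes called by edgeR. The difference at 18 h was -0.10 (95% interval -0.48 to 0.28) for CCND1, -0.46 (-1.05 to 0.12) for CCND2 and -0.39 (-0.86 to 0.07) for MYCL. At 18 h, 4 of the 10 genes were lower with CHIR99021 without overlap (CCND2, CCND3, MYCN and MYCL), where 20.6% of all genes were, and 0 were higher, against 18.6%.

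From 6 h to 18 h of WNT3A, CCND1 went from 792 to 475 CPM, a log2 change of -0.74 (95% interval -1.15 to -0.32, edgeR FDR 0.164, unadjusted p = 0.00324) that did not pass in edgeR but did in DESeq2 (FDR 0.0185). MYCL changed by 0.14 (-0.39 to 0.68) and CCND2 by -0.12 (-0.67 to 0.44) over the same time. CCND3 (0.63), CCNE1 (0.39), CCNE2 (0.92) and MYC (0.55) had higher values in both 18 h libraries than in either 6 h library without passing, where 20.9% of all genes were higher without overlap. CCND1 was the 1 gene lower without overlap, against 21.9%. With WNT3A edgeR called 0 of the 10 genes between the times, with 4 at an unadjusted p under 0.05 (13.2% of all genes) and 1 called by DESeq2, and 0.144% of all genes were called. With CHIR99021 the change of CCND1 from 6 h to 18 h was 0.27 (-0.11 to 0.65), that of MYCL 0.54 (0.08 to 1.01, edgeR FDR 0.595) and that of CDKN1A 0.95 (0.43 to 1.47, edgeR FDR 0.291), these 3 in a fit with the repeat as a block. Without the block they were 0.36 (SE 0.18), 0.40 (SE 0.24) and 0.30 (SE 0.56). The CDKN1A libraries overlapped between the times, and repeat 2 has 1 library at 6 h. Of the 10 genes edgeR called 0 between the times of CHIR99021, with 2 at an unadjusted p under 0.05 (6.85% of all genes) and 0 called by DESeq2, and 0.00656% of all genes were called. The difference between the time changes of the treatments passed in edgeR for 0 of the 10 genes and 0% of all genes, with 2 of the 10 (CCND1 and CCND3) at an unadjusted p under 0.05, as 3.76% of all genes were, and 0 called by DESeq2.

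Levels per length of the longest annotated transcript compare genes only roughly, since the sources name no transcript set. They include mTeSR1 replicate 2 and WNT3A 6 h replicate 2, whose deviations follow transcript length. The part of this in the order below and in the family shares was not tested. The order in mTeSR1 began with MYCN (53.7 CPM per kb) and CCND1 (42.7), whose libraries overlapped. MYC (35.6), CCNE1 (22.7), CCND3 (12.48) and CCND2 (9.69) followed without overlap between neighbours. MYCL (6.55), CDKN1C (5.60) and CDKN1A (5.51) overlapped in sequence, and CCNE2 (0.610) came last. In all 4 treated groups CCND1 came first without overlap with the next gene, at 183.9 CPM per kb after 6 h and 110.3 after 18 h of WNT3A, and 85.3 and 109 after 6 h and 18 h of CHIR99021. MYCL stood at position 7 in mTeSR1 and at position 5 in each treated group, overlapping CCND2 or CCNE1 there.

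The genes whose log2 CPM followed CCND1 most closely over the 10 libraries, among 11286 genes with a mean of at least 5 CPM, were KLF5 (Pearson r = 0.984), PPP1R2 (0.968), PROX1 (0.960), NKD1 (0.952) and TCF4 (0.951). For MYCL they were NKX1-2 (0.980), ELMOD1 (0.979), TMEM132C (0.973), KITLG (0.973) and GBX2 (0.969). These coefficients describe the 10 libraries, which share the 5 groups, and carry no test. KLF5 had means of 1.34 CPM in mTeSR1, 19.9 and 8.24 CPM after 6 h and 18 h of WNT3A, and 6.48 and 9.55 CPM after 6 h and 18 h of CHIR99021, with its peak at 6 h of WNT3A as in CCND1. NKX1-2 had 42.2, 538, 508, 196 and 387 CPM in the same order, at similar levels at both times of WNT3A as in MYCL.

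Genes that act with or under these were followed as lists. Over all genes, 9.36% of the 122008 tests in the 8 pairwise comparisons had an unadjusted p under 0.05, the share to set beside the counts below. Of 8 G1 kinases and their partners (CDK4, CDK6, CDK2 and the CDK-activating kinase among them), edgeR called 0 in the 8 pairwise comparisons (64 tests, 5 with an unadjusted p under 0.05, 0 called by DESeq2). Their median log2 change was 0.01 and 0.21 after 6 h and 18 h of WNT3A and 0.21 and 0.27 after 6 h and 18 h of CHIR99021, where the median over all genes was 0.01, 0.02, 0.01 and 0.02. CDK4 and CDK6, the kinases of the D cyclins, are named after their values were seen. CDK4 had 198 and 124 CPM in mTeSR1 and 122 to 214 CPM in the treated libraries, and CDK6 had 28.9 and 31.4 CPM against 21.5 to 48.2 CPM. Among the other CDK inhibitors, CDKN1B (p27) and CDKN2D were tested and not called (16 tests, 1 with an unadjusted p under 0.05, 0 called by DESeq2), while CDKN2A, CDKN2B and CDKN2C had at most 0.748 CPM in any library and were not tested. Of 13 pocket protein and E2F genes edgeR called 0 (104 tests, 14 with an unadjusted p under 0.05, 1 called by DESeq2). Positive and negative changes numbered 7 and 6 after 6 h of WNT3A and 12 and 1 after 18 h. With CHIR99021 they numbered 8 and 5 after 6 h and 10 and 3 after 18 h. The medians in the same order were 0.0067, 0.28, 0.05 and 0.25, to set beside the medians over all genes given above.

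Of 16 E2F target genes of S phase entry, such as the MCM genes, CDC6 and PCNA, edgeR called 0 in the 8 pairwise comparisons (128 tests, 6 with an unadjusted p under 0.05, 0 called by DESeq2). Their changes lay between -0.06 and 0.32 on the log2 scale after 6 h of WNT3A, when CCND1 was highest, with a median of 0.10. Of the 16, 15 were positive after 6 h and 14 after 18 h of WNT3A. With CHIR99021 these counts were 12 and 8. Medians were 0.10 after 18 h of WNT3A and 0.01 and 0.0031 after 6 h and 18 h of CHIR99021. Of 18 MYC target genes, such as ODC1, NCL and CAD, edgeR and DESeq2 called 0 (144 tests, 0 with an unadjusted p under 0.05), with medians from -0.0017 to 0.06 against mTeSR1. Lists for turnover of cyclins and MYC proteins (13 genes), p53 targets (15 genes), the imprinted neighbours of CDKN1C (6 of 7 tested) and G2 and M cyclins (7 of 8 tested) had 0 called members in edgeR, with 8, 10, 3 and 6 of 104, 120, 48 and 56 tests at an unadjusted p under 0.05. DESeq2 called 0, 1, 0 and 0 of them.

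In the MAX network, which supplies the partners and antagonists of MYC proteins, MXD4 was called among 10 genes tested (80 tests, 2 called by edgeR, 9 with an unadjusted p under 0.05, 5 called by DESeq2). MXD4 encodes a MAX partner that represses genes at E-boxes. It had 56.0 and 46.8 CPM in mTeSR1, 49.0 and 38.7 CPM after 6 h and 23.4 and 18.6 CPM after 18 h of WNT3A, and 44.2 and 40.7 CPM after 6 h and 19.8 and 20.7 CPM after 18 h of CHIR99021. All 4 libraries at 18 h were below the other 6. MXD4 fell by 1.29 on the log2 scale after 18 h of WNT3A (SE 0.18, edgeR FDR 0.0124) and by 1.21 after 18 h of CHIR99021 (SE 0.13, edgeR FDR 0.00450), where 1.06% and 1.63% of all genes were called lower. The first call was lost without mTeSR1 replicate 1 (FDR 0.0628) or either WNT3A 18 h library (0.0569 and 0.120), and the second without mTeSR1 replicate 2 (0.126). Between 6 h and 18 h of WNT3A the change of -1.06 did not pass (FDR 0.0709) and passed with the repeat as a block (FDR 0.0148). MLXIPL, which encodes a partner of MLX and is named after its values were seen, had 7.69 and 5.16 CPM in mTeSR1 and 13.4 and 24.1 CPM after 18 h of CHIR99021, a log2 change of 1.62 that did not pass in edgeR (FDR 0.0734) and did in DESeq2. As a check of the treatments, 4 of 8 direct WNT target genes (AXIN2, SP5, NKD1 and TCF7) rose after 6 h and 5 after 18 h of WNT3A, 1 (SP5) after 6 h and 6 after 18 h of CHIR99021, where 0.387%, 1.04%, 0.0197% and 1.15% of all genes were called higher. With the other choice on the repeat block the counts were 5, 6, 1 and 5, where 0.918%, 2.07%, 0.138% and 0.662% of all genes were called higher. The counts were 1, 1, 0 and 1 without mTeSR1 replicate 1 and 1, 2, 0 and 1 without mTeSR1 replicate 2, with SP5 in each count above 0. Without WNT3A 18 h replicate 1 the count after 18 h of WNT3A was 1, and without CHIR99021 18 h replicate 2 that after 18 h of CHIR99021 was 3. Without both length-linked libraries the counts were 0, 1, 0 and 0, and with no filter on low counts 3, 3, 0 and 3. The SP5 call after 6 h of CHIR99021 was made in 7 of 16 alternatives and the LEF1 call after 18 h of CHIR99021 in 4 of 16.

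**Figure D4:**
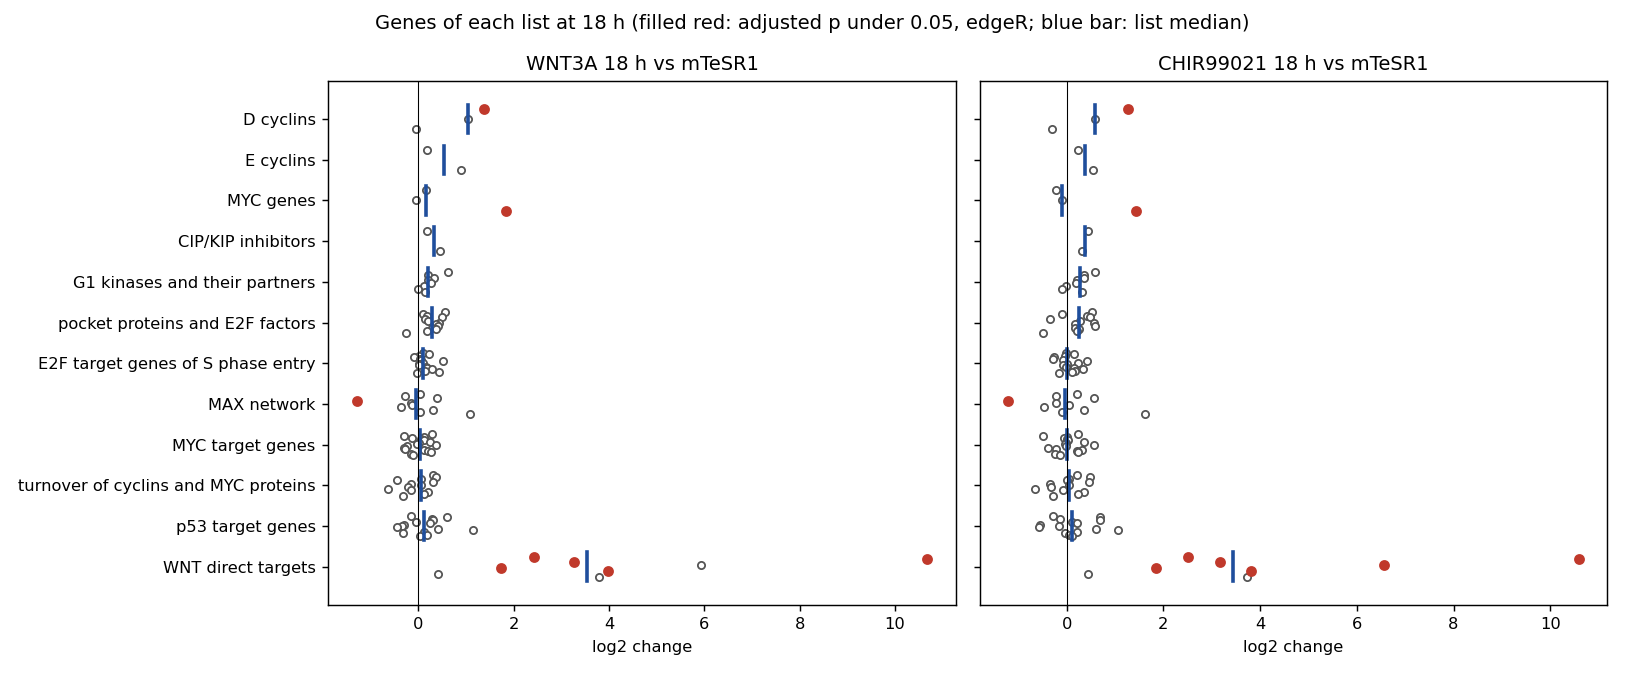
Log2 change against mTeSR1 (horizontal axis) of each tested gene in 12 lists after 18 h of WNT3A (left) and of CHIR99021 (right); red points passed an FDR of 0.05 in edgeR and blue bars are list medians. Apart from the WNT target list, the red points are CCND1, MYCL and MXD4, and the medians of the lists of E2F and MYC target genes lie close to 0.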

How the data were processed

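The deposited values are estimated counts per gene identifier, which the authors made with Salmon 1.8.0 on GRCh38, per the submitters' processing notes. The sources used here name no transcript set. Counts were summed per symbol and rounded. Genes were kept by edgeR 4.0.16 (R 4.3.3) where counts reached 10 in enough libraries and 15 in all, scaled by TMM, and tested with glmQLFTest (robust), all 10 libraries in 1 fit. FDR is Benjamini-Hochberg over 15251 genes, called under 0.05. The biological repeat was a block for comparisons with CHIR99021 at 18 h and for the difference of time changes, and each comparison was also fitted the other way. The repeats pair libraries by the series' design text; same-repeat deviations correlated at 0.261 to 0.595 over 6 pairs of groups. Replicates differed beyond sampling noise (chi-square per degree of freedom 13.1 to 108). Since no source states separate cultures within a repeat, p-values measure the spread between libraries, which may be partly technical. Levels are CPM on TMM-scaled totals, and per-length levels use the longest GENCODE 29 transcript. Log2 CPM for correlations had a prior count of 2. Named genes are all members, called genes of each list, and the 5 genes nearest to members called in at least 2 comparisons; CDK4, CDK6 and MLXIPL fall outside this rule and were added after their values were seen. Members and lists were chosen with earlier results of these data known. Alternatives were DESeq2 1.42.0, its size factors, no filter, no summing, the other blocking, and leaving out libraries. The scripts were tested on simulated data.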

Additional observations from a re-analysis of the deposited data

Results flagged for a closer look

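CCND1 had values that differed between the times in opposite directions with WNT3A and CHIR99021, although neither change passed in edgeR (log2 -0.74, FDR 0.164, and 0.27, 95% interval -0.11 to 0.65, FDR 0.870). With WNT3A both 18 h libraries (474 and 477 CPM) were below both 6 h libraries (712 and 872 CPM), while with CHIR99021 both 18 h libraries (423 and 518 CPM) were above both 6 h libraries (372 and 363 CPM). The difference of the time changes, CHIR99021 minus WNT3A, was 1.00 on the log2 scale (SE 0.23, 95% interval 0.47 to 1.52, unadjusted p = 0.00214). It did not pass over all genes in edgeR (FDR 0.927), where 0% of genes were called, nor in DESeq2 (FDR 0.0973), and lay between 0.83 and 1.14 over 16 alternatives. Of the 10 genes, 2 had an unadjusted p under 0.05 in this comparison (3.76% of all genes), CCND1 and CCND3 (-0.52, 95% interval -1.03 to -0.01).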

How the results depend on the processing

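Of 1440 refitted changes of the 10 genes, 1342 kept their direction and side of the threshold, 20 lost a call, 15 gained one, 63 that were never called changed sign, and 0 called changes reversed. In the order WNT3A 6 h, WNT3A 18 h, CHIR99021 6 h and CHIR99021 18 h against mTeSR1, WNT3A 18 h against 6 h, CHIR99021 18 h against 6 h, CHIR99021 against WNT3A at 6 h and at 18 h, and the difference of time changes, edgeR called 66, 320, 3, 424, 22, 1, 1, 0 and 0 genes. DESeq2 called 249, 808, 65, 923, 415, 131, 30, 10 and 12. No filter on low counts gave 173, 576, 32, 576, 275, 21, 9, 0 and 1. Counting per identifier gave 1 for CHIR99021 6 h, 254 for CHIR99021 18 h, 0 between its times, and 1 each for the treatments at 18 h and the difference. Without both length-linked libraries, an alternative chosen after seeing the data, the counts were 10, 128, 1, 96, 0, 29, 0, 6 and 11, and 1 of the 10 genes was called for WNT3A 6 h, WNT3A 18 h and CHIR99021 18 h in place of 2. Both DESeq2 and the fit with no filter called 1 of the 10 genes, CCND1, where edgeR called 0: CHIR99021 6 h, WNT3A 18 h against 6 h, and CHIR99021 against WNT3A at 6 h. DESeq2 size factors changed no call of these genes.

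The replicate block, by biological repeat, gave 168, 751 and 21 genes for WNT3A 6 h, WNT3A 18 h and CHIR99021 6 h, 279 for WNT3A 18 h against 6 h and 3 for the treatments at 6 h, and without the replicate block CHIR99021 18 h had 181 and its comparison with 6 h had 0. Among the 10 genes the block changed the call of CCND2 at 18 h of WNT3A and no other. Leaving out 1 library at a time gave 13 to 88, 53 to 387, 1 to 14, 10 to 522, 0 to 101, 0 to 83, 0 to 5, 0 to 6 and 0 to 6 genes in the same order, and 1 to 3, 0 to 3, 0 to 0 and 0 to 2 of the 10 genes against mTeSR1, 0 in the rest. Without a library its group has 1 sample, assumed to vary like the other groups. Depth limits CCNE2, at 31 to 86 counts.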
